A study of Mus musculus with 72 samples.

Results

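The daily rhythm of gene expression was described in the suprachiasmatic nucleus (SCN) of mice kept on a control diet under a light-dark cycle, a group called Ctrl LD. It comprised 18 RNA-seq libraries of the 72 in the series, with 3 at each of 6 time points spaced by 4 h, namely ZT0, ZT4, ZT8, ZT12, ZT16 and ZT20. Zeitgeber time (ZT) counts hours from lights on, and the lights went off at ZT12. The mice were male C57BL/6 animals from the Jackson Laboratory and 8 weeks old. They lived alone in a cage for 1 week under 12 h of light a day and then ate the control diet (Ctrl), matched for nitrogen to the depleted diets, for 2 weeks under the same light. The other 3 of the 4 groups received a diet without tryptophan (-Trp), constant darkness (DD) or both, and all 4 groups had the same strain, sex, age and housing. There were 3 mice at each time point, which matches 1 library per mouse, so p-values measure the spread between these libraries.

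The time and the group of each library were not taken from the column names of the deposited tables. Those names stand 12 columns away from the values listed gene by gene with the study, and would call the same 18 columns Ctrl DD at 16 and 20 h and -Trp DD at 0, 4, 8 and 12 h. Each of the 18 columns of Ctrl LD as placed here equalled that listing in 100% of the 1915 to 1939 genes compared. The column bearing the matching name equalled it in at most 2. For Ctrl DD the same held in 100% of 124 to 134 genes, and the placement of -Trp LD was not compared with the listing. Every time of day below rests on this placement. It also means that ZT0 and ZT4 came from one deposited table and ZT8 to ZT20 from another, and a difference between the tables cannot be told apart from a difference between those times.

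The SCN is the master clock of the mammalian brain, a small nucleus above the optic chiasm that receives light directly from the retina. In its cells CLOCK and BMAL1 (encoded by Arntl) activate E-box genes, among them Per and Cry, whose proteins then repress their own transcription. A second loop of REV-ERB repressors and ROR activators times Arntl, and output factors such as DBP carry the rhythm to other genes. Neuropeptides, chiefly AVP and VIP, couple the neurons to one another.

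The tissue was checked against markers before its rhythm was read. All 8 SCN neuron markers were detected, but at low levels per length for several that define the nucleus, with a mean over the 18 libraries of 1.71 FPKM for Six6, 1.05 for Lhx1, 1.40 for Prok2 and 2.34 for Vipr2, against 21.1 for Vip and 494 for Avp. FPKM, fragments per unit of transcript length and of library size, is the unit of every level given here. Oxt, a marker of the paraventricular and supraoptic nuclei, was at 1684 FPKM, so the dissected tissue also held transcripts of neighbouring hypothalamus. No marker of any list found in the tables was at 0 throughout. In such bulk samples, fewer cells of a type and less RNA per cell cannot be told apart. The number of reads behind each value is unknown, because FPKM keeps no count.

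Replicate 1 of ZT8 and replicate 2 of ZT20 stood apart from the rest. Their spread around the mean of their time point, as the SD over genes of the log2 deviation, was 0.290 and 0.326, against 0.154 to 0.234 in the other 16 libraries. The 5 endothelial markers summed to 70.1 and 75.8 FPKM in these 2 libraries, while the 7 astrocyte markers summed to 447 and 466 FPKM against 584 to 739.8 in the other 16. Endothelial sums also differed by time of day, at 42.7 to 77.6 FPKM at ZT0, 35.1 to 47.4 at ZT4 and 14.8 to 30.1 in every later library other than those 2. Cldn5, a tight junction gene of brain endothelium, had a fitted log2 amplitude of 0.80 with a peak at 0.510 h that did not pass the adjusted test (limma, adjusted p = 0.122). Of the 8 SCN neuron markers, 3 were lower in both of these libraries than in any other. Lhx1 was at 0.225 and 0.213 FPKM there and at 0.851 to 1.63 in the other 16, Vipr2 at 0.985 and 0.477 against 1.48 to 4.42, and Six6 at 0.897 and 0.219 against 1.12 to 3.01. The other 5 were not, with Prok2 at 2.05 and 1.64 FPKM against a median of 1.18, and the sums of the list, 534 and 419.9 FPKM, lay inside the range of the other 16, 262 to 1030.1. What these markers contributed to the rhythms described next was not tested.

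The number of rhythmic genes depended on the rule of calling. JTK_CYCLE, a rank test for a cosine shape with an exact null distribution and the method of the study, called 1769 of 24883 gene entries at p under 0.05 without adjustment over genes, which is 7.11%. Of the 14199 genes whose mean reached 0.5 FPKM it called 1548, or 10.9%. A cosine curve of 24 h fitted with limma to log2(FPKM + 0.5) called 93 of those 14199 genes at a Benjamini-Hochberg adjusted p under 0.05, which is 0.655%, and 2036 (14.3%) at an unadjusted p under 0.05. All 93 were also called by JTK_CYCLE. Below, a gene is said to rise and fall over the day only where it is one of the 93, and a JTK_CYCLE call is named as such.

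The 93 called genes were mostly of modest amplitude. Amplitude is the log2 distance from the mean of the fitted curve to its peak, and its median was 0.28 (range 0.13 to 0.82) against 0.08 over all genes tested. The median peak-to-trough fold was 1.47, and 8 of the 93 reached 2-fold. Peak times were known to a median standard error of 0.654 h. The last gene called, Srbd1, had an adjusted p of 0.0481 and the first not called, Xbp1, of 0.0508. Of the 93 genes, 41 passed in every one of the 18 fits that each left out 1 library. Leaving out replicate 2 of ZT20 raised the count to 641 of 14200 genes (4.51%), and the 93 were all among them, while JTK_CYCLE then called 2473 (17.4%).

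Peaks of called genes were most frequent at 2 times of day, which also held the most fitted peaks over all genes tested. In windows of 4 h, 36 of the 93 genes peaked around ZT8 and 24 around ZT20, whereas 7 peaked around ZT0, 7 around ZT4, 12 around ZT12 and 7 around ZT16. JTK_CYCLE calls had the same 2 maxima, with 382 of 2804 tested genes around ZT8 and 331 of 2809 around ZT20. The other windows held 176 to 232 calls each among 1933 to 2679 tested genes. ZT8 and ZT20 are also the times of the 2 libraries that stood apart. Without both libraries, 171 of 599 genes called by limma peaked around ZT8 and 150 around ZT20, against 53 to 78 in the other windows. Over all genes tested, the ZT8 and ZT20 windows also held the largest shares of fitted peaks, 19.7% and 19.8%, followed by ZT16 with 18.9%. Before ZT12 lay the peaks of 53 of the 93 genes and of 47.7% of all genes tested.

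**Figure D1:**
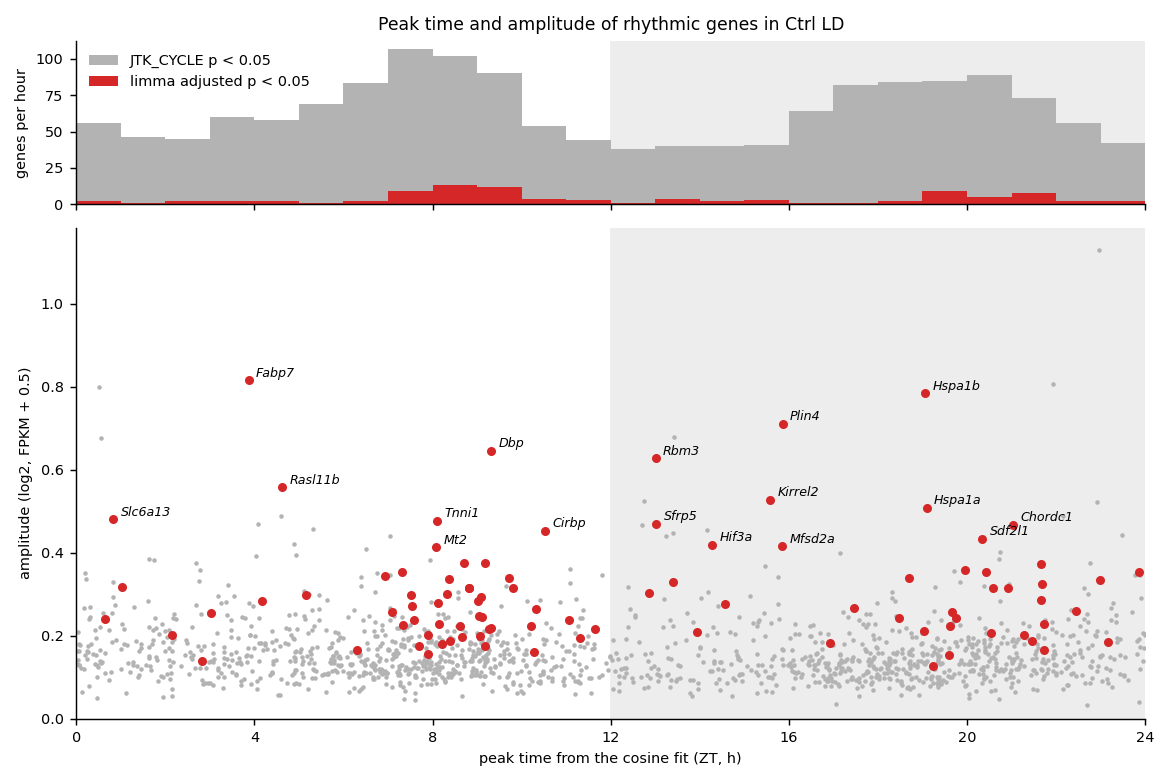
Peak time (x axis, ZT in hours) and log2 amplitude (y axis) of the genes called by JTK_CYCLE (grey) and of the 93 called by limma (red), with the number of genes per hour above; the shaded hours are dark. Calls are densest around ZT8 and around ZT20, and Fabp7 has the largest amplitude of the red points.

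Among the clock genes, the output and repressor genes with a peak late in the light phase carried the clearest rhythms. Dbp, Ciart and Nr1d1 rose and fell over the day, and the Per, Cry and Arntl transcripts had smaller fitted amplitudes that did not pass the adjusted test with all 18 libraries. Dbp encodes a PAR bZIP activator that is a direct output of the clock (chr7:45705088-45710203 in GRCm38/mm10, GENCODE M21, as for all positions here). Its levels were 13.98, 18.4 and 17.4 FPKM at ZT0, 21.5, 28.7 and 34.8 at ZT4, 31.7, 35.1 and 39.4 at ZT8, 39.8, 34.9 and 34.01 at ZT12, 21.1, 20.3 and 23.7 at ZT16 and 16.5, 15.4 and 16.7 at ZT20. All 9 libraries of ZT4 to ZT12 lay above the 6 of ZT0 and ZT20, without overlap. The fitted log2 amplitude was 0.65 ± 0.05 (SE) with a peak at 9.32 ± 0.315 h (SE), a 2.45-fold change from trough to peak (limma, adjusted p = 9.92e-06).

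Ciart, also known as CHRONO, represses CLOCK and BMAL1 (chr3:95878503-95882251). It was at 5.06, 6.17 and 6.48 FPKM at ZT0, 7.57, 7.86 and 9.33 at ZT4, 8.04, 9.85 and 9.49 at ZT8, 9.81, 8.55 and 8.45 at ZT12, 6.26, 5.87 and 7.29 at ZT16 and 5.56, 5.26 and 5.75 at ZT20. The 9 libraries of ZT4 to ZT12 were all higher than the other 9. Its amplitude was 0.38 ± 0.04 and its peak 8.70 ± 0.4002 h (limma, adjusted p = 0.000186). Nr1d1, which encodes REV-ERB alpha, the repressor of Arntl (chr11:98767932-98775333), was at 23.5, 27.1 and 27.2 FPKM at ZT0, 33.4, 36.2 and 38.5 at ZT4, 31.9, 35.8 and 36.5 at ZT8, 32.8, 28.8 and 27.1 at ZT12, 25.7, 25.6 and 30.6 at ZT16 and 23.3, 25.8 and 26.2 at ZT20. It was highest at ZT4 and ZT8 and lowest at ZT0 and ZT20, and the ZT4 libraries overlapped with none of those of ZT0, ZT12, ZT16 and ZT20. Its peak, at 7.09 ± 0.622 h, came earliest of these 3 genes, with an amplitude of 0.26 ± 0.04 (limma, adjusted p = 0.0131). Each of the 3 passed in all 18 fits without 1 library.

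Of the 5 clock repressors, none was called by limma and 4 were called by JTK_CYCLE, against the 10.9% of all genes, and their median log2 amplitude was 0.15. Per1, whose protein forms the repressor complex with CRY (chr11:69095217-69109960), was at 6.33, 6.65 and 7.50 FPKM at ZT0, 8.28, 8.17 and 9.29 at ZT4, 7.57, 9.19 and 8.76 at ZT8, 10.4, 9.85 and 9.44 at ZT12, 7.50, 9.14 and 8.90 at ZT16 and 6.53, 9.48 and 8.19 at ZT20. The ZT12 libraries were the highest of any time point, overlapping only with replicate 2 of ZT20, 1 of the libraries that stood apart. Its peak was fitted at 11.5 ± 1.06 h with an amplitude of 0.18 ± 0.05 (limma, adjusted p = 0.180, and exact JTK_CYCLE p = 0.0147). Without replicate 2 of ZT20 the limma adjusted p of Per1 was 0.0194.

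Cry1 (chr10:85131700-85185064) was at 7.17, 8.19 and 7.71 FPKM at ZT0, 7.63, 8.38 and 8.86 at ZT4, 7.03, 8.16 and 9.20 at ZT8, 9.78, 10.2 and 9.89 at ZT12, 8.69, 9.38 and 9.29 at ZT16 and 8.72, 6.13 and 8.32 at ZT20. Its 3 ZT12 libraries were higher than all the other 15. The fitted peak was at 12.4 ± 1.01 h with an amplitude of 0.15 ± 0.04 (limma, adjusted p = 0.157, and 0.0396 without replicate 2 of ZT20). Cry2 had an amplitude of 0.10 ± 0.03 at 11.6 ± 1.18 h and Per3 of 0.15 ± 0.06 at 13.3 ± 1.67 h, with exact JTK_CYCLE p-values of 0.0196 and 0.0441. Per2 (chr1:91415982-91459324) was at 3.42 to 4.19 FPKM at ZT12 and 2.70 to 3.23 at ZT20, which did not overlap, and was called by neither rule (limma, adjusted p = 0.310, and exact JTK_CYCLE p = 0.143).

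The activators Arntl and Clock were fitted with peaks between the middle of the dark phase and lights on. Arntl (chr7:113207465-113314126) was at 7.97, 8.70 and 8.82 FPKM at ZT0, 7.33, 6.94 and 7.52 at ZT4, 6.46, 6.83 and 6.89 at ZT8, 6.69, 6.76 and 5.97 at ZT12, 7.44, 7.73 and 8.74 at ZT16 and 7.87, 4.61 and 7.31 at ZT20. Its ZT0 libraries lay above those of ZT4, ZT8 and ZT12 without overlap, and the lowest single value was that of replicate 2 at ZT20. The fitted peak was at 23.2 ± 2.38 h, close to lights on, with an amplitude of 0.09 ± 0.06 that did not pass (limma, adjusted p = 0.638, and exact JTK_CYCLE p = 0.0196). Without that library the amplitude was 0.16 with a peak at 21.8 h, which passed (limma, adjusted p = 0.0392). Clock, its partner, had an amplitude of 0.13 ± 0.05 at 19.9 ± 1.53 h and Npas2 of 0.11 ± 0.06 at 20.005 ± 1.90 h, called by neither rule. Of the 7 genes of the activator and ROR/REV-ERB list, 1 (Nr1d1) was called by limma and 3 (Nr1d1, Arntl and Rora) by JTK_CYCLE. The latter are 42.9%, against 10.9% of all genes, and the median amplitude of the list was 0.11.

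Nfil3, the repressor that competes with DBP for D-box sites (chr13:52967209-52981073), was at 4.83, 5.72 and 6.02 FPKM at ZT0, 4.68, 4.60 and 5.05 at ZT4, 4.54, 4.56 and 3.92 at ZT8, 3.86, 4.00 and 3.90 at ZT12, 5.86, 5.27 and 6.497 at ZT16 and 4.42, 5.18 and 5.44 at ZT20. It was highest at ZT16 and ZT0 and lowest at ZT8 and ZT12, and its ZT12 libraries lay below every library of ZT0, ZT4, ZT16 and ZT20. Its peak, 21.003 ± 1.09 h, was late in the dark phase (amplitude 0.19 ± 0.05, limma, adjusted p = 0.189, and exact JTK_CYCLE p = 0.0340). Among the 7 output factors, Dbp and Ciart were called by limma and Nfil3 and Bhlhe41 in addition by JTK_CYCLE, with a median amplitude of 0.15. JTK_CYCLE called 57.1% of this list, against 10.9% of all genes. The PAR bZIP relatives Tef and Hlf had amplitudes of 0.06 ± 0.03 and 0.08 ± 0.04, called by neither rule. Bhlhe40 and Bhlhe41, which encode the DEC repressors, peaked at 9.91 ± 1.202 h and 9.99 ± 1.05 h in the fit. Of the 8 kinases, ligases and partners that modify clock proteins, Usp2, a deubiquitinase, was called by JTK_CYCLE alone (peak 10.4 ± 0.784 h, amplitude 0.29 ± 0.06, limma, adjusted p = 0.0573). That is 12.5% of the 8, near the 10.9% of all genes.

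**Figure D2:**
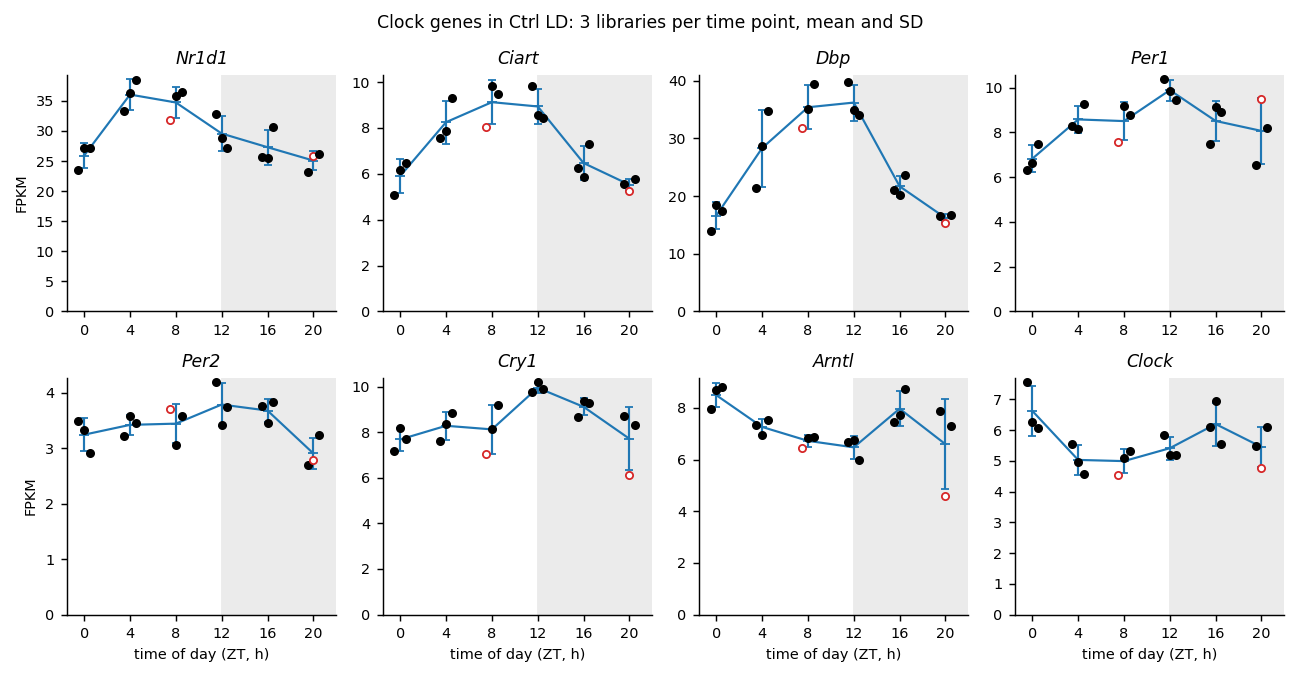
FPKM (y axis) by time of day (x axis, ZT in hours) for 8 clock genes in Ctrl LD; points are libraries, red open points are replicate 1 of ZT8 and replicate 2 of ZT20, the line joins means with SD bars (n = 3), and the shaded hours are dark. Nr1d1, Ciart and Dbp have fitted peaks from 7.09 to 9.32 h, Per1 and Cry1 are highest at ZT12, and Arntl is lowest there.

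Promoter sequence is shown for Ciart and Per1, which carry an E-box and had fitted peaks late in the light phase. It is also shown for Nfil3, which carries the core letters of a ROR element and had its fitted peak in the dark. The sequences are those of RefSeq on GRCm38.p6, upstream of its annotated starts and read 5′ to 3′ on the strand of the gene, and capitals mark the motif.
Ciart, chr3:95882229-95882378, minus strand: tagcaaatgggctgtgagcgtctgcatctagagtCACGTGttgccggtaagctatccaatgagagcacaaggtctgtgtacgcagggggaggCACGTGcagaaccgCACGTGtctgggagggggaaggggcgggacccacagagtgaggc
Per1, chr11:69098749-69098948, plus strand: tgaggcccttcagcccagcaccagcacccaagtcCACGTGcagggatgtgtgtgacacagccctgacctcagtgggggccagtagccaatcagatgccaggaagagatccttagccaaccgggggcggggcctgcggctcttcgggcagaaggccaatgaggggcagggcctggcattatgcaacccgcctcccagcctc
Nfil3, chr13:52981040-52981139, minus strand: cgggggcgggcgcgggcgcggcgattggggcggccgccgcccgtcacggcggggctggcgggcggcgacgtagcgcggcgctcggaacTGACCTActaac
The E-box searched was CACGTG, which reads the same on both strands, and was found at -116, -58 and -44 from the start of Ciart and at -166 from that of Per1, positions being those of the first base. The ROR element core searched was TAGGTCA on either strand, and in Nfil3 it stands on the opposite strand at -12. Other genes did not all pair motif and time in this way. The E-box was in 2 of 4 clock repressors with a promoter and 3 of 6 output factors. It was in 0 of 7 genes of the activator and ROR/REV-ERB list, which holds Nr1d1. Tef, called by neither rule with a fitted peak at 15.8 h, and Hsph1, with a peak at 21.7 h, held it. Over all 32851 RefSeq promoters of the same 300-base window (250 before the start and 50 after), 7.15% held the E-box and 2.61% the ROR element core, while the D-box TTATGTAA was in 0.938% and the cyclic AMP element TGACGTCA in 1.79%. Promoters were found for 68 of the 93 called genes, of which 8 (11.8%) held an E-box against 11.5% of the 10621 tested genes with a promoter. The share was 17.02% (24 of 141) among genes with a JTK_CYCLE call around ZT12 and between 8.38% and 13.04% in the other windows. Such a match is a description of letters and not of binding.

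The neuropeptide genes of the SCN differed in fitted amplitude, a value that also rises with the spread inside time points. Avp, Vip, Nms, Prok2 and Cck had amplitudes of 0.34 to 0.50, and Grp, Gal, Sst, Penk and Nmu of 0.09 to 0.11, near the 0.08 of all genes. Cck was at 21.5, 36.3 and 61.7 FPKM at ZT16 and 23.8, 59.7 and 23.5 at ZT20. Of the 10 genes, 9 had their fitted peak before ZT12, against 47.7% of all genes tested. Limma called none of them and JTK_CYCLE 1 (10%, against 10.9% of all genes). That gene was Prok2, a secreted output signal of the SCN (chr6:99711299-99726392), at 1.22, 1.49 and 1.15 FPKM at ZT0, 1.66, 3.66 and 2.89 at ZT4, 2.05, 1.06 and 1.33 at ZT8, 0.951, 0.757 and 0.903 at ZT12, 1.25, 0.998 and 0.829 at ZT16 and 0.817, 1.64 and 0.595 at ZT20. It was highest at ZT4 and lowest at ZT12, and those libraries did not overlap, although replicate 1 of ZT8 and replicate 2 of ZT20 reached into the range of ZT4 or just below it. The amplitude was 0.47 ± 0.12 with a peak at 4.07 ± 0.957 h (limma, adjusted p = 0.136, and 0.0357 without replicate 2 of ZT20).

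Avp was at 499.5, 581 and 489 FPKM at ZT0, 449, 933 and 478 at ZT4, 497, 401 and 674 at ZT8, 572, 666 and 606 at ZT12, 313, 274 and 423 at ZT16 and 420.1, 403 and 220.1 at ZT20. A single ZT4 library, replicate 2, held the highest value and the lowest values were at ZT20 and ZT16. The same library held the highest values of Vip, Nms, Prok2, Rgs16 and Six6 (39.6, 8.29, 3.66, 38.9 and 3.01 FPKM). It also held that of Oxt (2288 FPKM), but not those of Lhx1 and Vipr2. The fitted amplitude of Avp, 0.41 with a peak at 6.40 h, did not pass (limma, adjusted p = 0.213). Vip, the signal of the retinorecipient core, ranged from 4.03 to 39.6 FPKM with a spread inside ZT16 and ZT20 as wide as that between times (amplitude 0.50, limma, adjusted p = 0.513). The 8 SCN neuron markers summed to 506 to 1030.1 FPKM at ZT4 and to 262 to 482 at ZT20, a sum that is largely Avp. Lhx1, a transcription factor of SCN neurons that is not a peptide, was at 0.958 to 1.25 FPKM at ZT4, 0.884 to 1.06 at ZT12 and 1.14 to 1.502 at ZT16. Six6, the other transcription factor among these markers, had its highest mean at ZT4, at 1.74 to 3.01 FPKM. It was at 1.204 to 1.62 FPKM at ZT12 and 1.13 to 2.404 at ZT16. The part that the sampled amount of SCN had in the peptide values was not tested. Among peptide receptors and their regulators, JTK_CYCLE called Rgs16, a regulator of G protein signalling (amplitude 0.46, peak 5.32 h, limma, adjusted p = 0.134), and the vasopressin receptor Avpr1a (amplitude 0.25 ± 0.06, peak 17.8 ± 0.890 h, limma, adjusted p = 0.106), 2 of 6 tested (33.3%). Of 6 SCN transcription factors 1, Rora, was called by JTK_CYCLE (16.7%) and none by limma. None of the 16 tested immediate early genes, which report recent stimulation of neurons, was called by either rule. Over all genes tested, limma called 0.655% and JTK_CYCLE 10.9%. Fos itself was at 3.85 to 5.13 FPKM at ZT0 and 1.97 to 2.38 at ZT8, without overlap (amplitude 0.31 ± 0.08, limma, adjusted p = 0.174).

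The rhythm with the largest amplitude of the 93 belonged to Fabp7 (chr10:57784881-57788450), the brain fatty acid binding protein of astrocytes. It was at 92.4, 114 and 101 FPKM at ZT0, 122, 122 and 110.3 at ZT4, 95.2, 92.4 and 112 at ZT8, 55.7, 56.9 and 51.01 at ZT12, 48.3, 33.4 and 36.05 at ZT16 and 62.4, 50.97 and 56.3 at ZT20. All 9 libraries of ZT0 to ZT8 were higher than all 9 of ZT12 to ZT20, with no value between 62.4 and 92.4. The amplitude was 0.82 ± 0.05 and the peak 3.87 ± 0.248 h, a 3.10-fold change from trough to peak (limma, adjusted p = 3.32e-07). The 7 astrocyte markers had a median amplitude of 0.08, the same as all genes. None of the 7 was called by either rule, where limma called 0.655% and JTK_CYCLE 10.9% of all genes tested. Fabp5, a second member of the family, was called by JTK_CYCLE with an amplitude of 0.13 and a peak at 8.08 h (limma, adjusted p = 0.205).

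Also with a peak early in the light phase was Rasl11b (chr5:74195286-74199481), which encodes a small GTPase of the Ras family. Its levels were 4.77, 6.92 and 8.01 FPKM at ZT0, 8.47, 14.03 and 10.6 at ZT4, 6.13, 6.74 and 7.66 at ZT8, 6.42, 5.40 and 5.19 at ZT12, 3.99, 3.99 and 4.00 at ZT16 and 4.22, 5.78 and 4.23 at ZT20. The ZT4 libraries were higher and the ZT16 libraries lower than all others (amplitude 0.56 ± 0.08, peak 4.63 ± 0.542 h, limma, adjusted p = 0.00460). Phkg1, a catalytic subunit of phosphorylase kinase that turns on glycogen breakdown, peaked at 2.15 ± 0.548 h and Emp2 at 3.01 ± 0.630 h, with amplitudes of 0.20 ± 0.03 and 0.25 ± 0.04. Around ZT0, Vstm4, Hist2h2be, Angptl4 and Slc6a13 peaked at 23.9 ± 0.520 h, 1.02 ± 0.579 h, 22.99 ± 0.587 h and 0.836 ± 0.684 h. Hist2h2be encodes a histone H2B, Angptl4 an inhibitor of lipoprotein lipase and Slc6a13 a GABA transporter of the leptomeninges. Slc6a13 was at 1.84 to 3.44 FPKM at ZT0 and 0.861 to 1.59 at ZT16 (amplitude 0.48 ± 0.09, limma, adjusted p = 0.0255). The 5 meningeal and fibroblast markers summed to 8.27 to 16.5 FPKM at ZT0, 8.93 to 12.8 at ZT4 and 5.38 to 9.05 at later times, and their part in the Slc6a13 rhythm was not tested.

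Genes of RNA processing peaked at several times of day rather than together. Of 23 hnRNP genes, which encode proteins that coat nascent transcripts, limma called 2 and JTK_CYCLE 6 (26.1%), with a median amplitude of 0.07. Over all genes tested, limma called 0.655% and JTK_CYCLE 10.9%, and the median amplitude was 0.08. Hnrnpc (chr14:52073377-52104028) was at 95.97, 99.3 and 99.8 FPKM at ZT0, 95.8, 98.7 and 89.2 at ZT4, 78.99, 80.2 and 80.1 at ZT8, 70.6, 69.1 and 71.2 at ZT12, 78.1, 76.1 and 75.1 at ZT16 and 93.8, 80.5 and 92.8 at ZT20. Its 3 ZT12 libraries were the lowest of the 18, and ZT0 and ZT4 were high (amplitude 0.24 ± 0.02, peak 0.652 ± 0.384 h, limma, adjusted p = 0.000122). Hnrnpdl (chr5:100033577-100039664) kept a different time, at 39.2, 36.7 and 33.9 FPKM at ZT0, 42.3, 39.7 and 43.02 at ZT4, 54.05, 49.6 and 51.3 at ZT8, 49.3, 47.2 and 49.6 at ZT12, 42.1, 34.4 and 34.3 at ZT16 and 33.8, 35.1 and 30.1 at ZT20. The 6 libraries of ZT8 and ZT12 were all higher than the other 12 (amplitude 0.32 ± 0.04, peak 8.83 ± 0.499 h, limma, adjusted p = 0.00204).

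Of 14 SR splicing factors, which promote the use of exons, both rules called Srsf5 and Tra2a, which is 14.3%. Over all genes tested, limma called 0.655% and JTK_CYCLE 10.9%. Srsf5 (chr12:80945504-80950507) was at 132, 120.3 and 108 FPKM at ZT0, 162, 150.1 and 153 at ZT4, 145, 148 and 134 at ZT8, 127, 124 and 118 at ZT12, 105, 82.4 and 92.5 at ZT16 and 129.7, 113 and 111 at ZT20. ZT4 was highest and ZT16 lowest, each without overlap with any other time (amplitude 0.30 ± 0.05, peak 5.16 ± 0.656 h, limma, adjusted p = 0.0187). Tra2a peaked at 21.7 ± 0.650 h, on the other side of the day, at 34.2 to 37.6 FPKM at ZT12 and 56.1 to 64.8 at ZT0, with its highest single value, 72.2, in replicate 2 of ZT20 (amplitude 0.37 ± 0.06, limma, adjusted p = 0.0182).

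Both cold-inducible RNA-binding proteins rose towards the light-dark transition. Cirbp (chr10:80165985-80172786), whose transcript accumulates on mild cooling, was at 60.6, 81.98 and 69.6 FPKM at ZT0, 98.2, 95.6 and 129 at ZT4, 133, 122 and 139.9 at ZT8, 151, 135 and 139 at ZT12, 112, 94.2 and 105 at ZT16 and 82.4, 97.2 and 89.95 at ZT20. The 3 ZT0 libraries were the lowest of the 18 and those of ZT8 and ZT12 were high, overlapping with a single ZT4 library. Its amplitude was 0.45 ± 0.06 with a peak at 10.5 ± 0.476 h (limma, adjusted p = 0.00127). Rbm3 (chrX:8138975-8145880) was at 43.2, 42.99 and 39.7 FPKM at ZT0, 44.8, 36.7 and 51.8 at ZT4, 77.3, 83.3 and 94.97 at ZT8, 113, 96.04 and 105 at ZT12, 81.4, 68.8 and 80.6 at ZT16 and 64.7, 98.2 and 58.6 at ZT20. The 6 libraries of ZT0 and ZT4 lay below the other 12, and ZT12 was highest, overlapping only with replicate 2 of ZT20. The peak of Rbm3 came later, at 13.01 ± 0.548 h, with an amplitude of 0.63 ± 0.09 and a 2.39-fold change (limma, adjusted p = 0.00460). The 4 CLK kinases of the same list, which phosphorylate SR proteins, were called by neither rule, against 0.655% (limma) and 10.9% (JTK_CYCLE) of all genes.

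Other genes of the ZT8 and ZT12 windows had varied functions. Armcx5 peaked at 9.19 ± 0.429 h, Tnni1, a troponin, at 8.10 ± 0.551 h, Sfrp5, an inhibitor of Wnt ligands, at 13.02 ± 0.586 h and Sin3b, a corepressor that recruits histone deacetylases, at 11.3 ± 0.644 h. Their amplitudes were 0.37 ± 0.04, 0.48 ± 0.07, 0.47 ± 0.07 and 0.19 ± 0.03. Tnni1 had its 6 libraries of ZT8 and ZT12 at 4.61 to 5.89 FPKM and those of ZT16 at 2.31 to 2.68.

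The large housekeeping families had small amplitudes, with fitted peaks mostly in the light phase. Of 76 cytosolic ribosomal protein genes, 74 had a fitted peak before ZT12, against 47.7% of all genes tested, but limma called none and JTK_CYCLE 6 (7.89%, against 10.9%), and the median amplitude was 0.09. Rpl7a was at 342 to 491 FPKM at ZT0 and 483 to 534 at ZT12, which overlapped (limma, adjusted p = 0.213). Oxidative phosphorylation was alike, with 72 of 74 genes peaking before ZT12, none called by limma, 9 by JTK_CYCLE (12.2%, against 10.9%) and a median amplitude of 0.09. Members of a family are not independent. A cosine of 24 h also leaves out part of their course. The mean of the ribosomal list was above its daily mean by 0.18 at ZT8 and by 0.10 at ZT20 on the log2 scale. It was at -0.17 at ZT16 and -0.13 at ZT0. For oxidative phosphorylation these 4 values were 0.12, 0.05, -0.13 and -0.12. The sums of the 7 oligodendrocyte markers, which had the same highest time, were lowest at ZT0 (1927 to 2462 FPKM) and highest in a ZT8 library (3389 FPKM), and their part in these families' values was not tested. Of 31 proteasome genes, limma called Psma7, a subunit of the core particle (amplitude 0.20 ± 0.04, peak 9.06 ± 0.718 h, adjusted p = 0.0368, held in 8 of 18 fits without 1 library), and JTK_CYCLE 7 (22.6%). Of 20 aminoacyl-tRNA synthetases, limma called Lars (amplitude 0.20 ± 0.04, peak 7.91 ± 0.684 h, adjusted p = 0.0255) and JTK_CYCLE 2 (10%). Of 20 sterol synthesis genes limma called none and JTK_CYCLE Nsdhl, Hmgcs1 and Acat2 (15%). Over all genes tested, limma called 0.655% and JTK_CYCLE 10.9%.

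Genes known to respond to glucocorticoids were on average highest at lights off. Of the 15 tested, 12 had their fitted peak after ZT12, whereas 47.7% of all genes tested peaked before it. Limma called 2, against 0.655% of all genes, and JTK_CYCLE 7 (46.7%, against 10.9%), and the median amplitude was 0.24. The mean of the list was highest at ZT12, 0.35 above its daily mean on the log2 scale, and lowest at ZT4, at -0.17. Plin4, a coat protein of lipid droplets (chr17:56100591-56109803), was at 0.894, 0.809 and 0.655 FPKM at ZT0, 0.410, 0.444 and 0.296 at ZT4, 0.255, 0.346 and 0.384 at ZT8, 1.54, 2.17 and 1.69 at ZT12, 1.33, 2.04 and 2.13 at ZT16 and 0.739, 0.623 and 1.38 at ZT20. The 6 libraries of ZT4 and ZT8 were the lowest of the 18, and those of ZT12 and ZT16 the highest apart from 1 ZT20 library. Its amplitude was 0.71 ± 0.11 on the log2(FPKM + 0.5) scale, which understates the change of so low a gene, with a peak at 15.9 ± 0.593 h (limma, adjusted p = 0.00854).

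The other gene of the list called by limma kept a different time. Mt2, a metallothionein that binds zinc (chr8:94172664-94173568), was at 171, 211 and 207 FPKM at ZT0, 247, 341 and 257 at ZT4, 304, 296 and 285 at ZT8, 319, 285 and 293 at ZT12, 179, 187 and 193 at ZT16 and 176, 205 and 185 at ZT20. Its 9 libraries of ZT4 to ZT12 were all higher than the other 9 (amplitude 0.41 ± 0.05, peak 8.08 ± 0.503 h, limma, adjusted p = 0.00214). Sgk1 and Tsc22d3, which encode a kinase and GILZ, had fitted peaks at 13.4 and 14.4 h with amplitudes of 0.68 and 0.27, called by JTK_CYCLE (exact p = 0.00795 and 0.00412). Fkbp5, a cochaperone of the receptor, was called by neither rule (amplitude 0.13 ± 0.05). Without replicate 2 of ZT20, limma called 8 of the 15 and JTK_CYCLE 11, where they called 4.51% and 17.4% of all genes.

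Around ZT16 the smallest p belonged to Mfsd2a (chr4:122946850-122961188), the transporter that carries lysophosphatidylcholine with omega-3 fatty acids across the blood-brain barrier. It was at 8.82, 9.91 and 8.97 FPKM at ZT0, 8.21, 8.44 and 8.49 at ZT4, 7.07, 7.86 and 8.51 at ZT8, 11.8, 14.2 and 13.7 at ZT12, 13.7, 14.95 and 15.6 at ZT16 and 11.7, 9.42 and 11.1 at ZT20. All 6 libraries of ZT12 and ZT16 lay above the other 12 (amplitude 0.42 ± 0.05, peak 15.9 ± 0.423 h, limma, adjusted p = 0.000369). Mfsd2a is itself an endothelial gene. The 5 endothelial markers summed to 26.5 to 30.1 FPKM at ZT12 and ZT16 and 42.7 to 77.6 at ZT0. At ZT8 they summed to 14.8 to 70.1 FPKM and at ZT20 to 24.6 to 75.8. Their part in the Mfsd2a rhythm was not tested. Kirrel2, an adhesion protein of the nephrin family, peaked at 15.6 ± 0.476 h with an amplitude of 0.53 ± 0.07 and Fgfr3, a fibroblast growth factor receptor of astrocytes, at 14.6 ± 0.585 h with 0.28 ± 0.04.

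**Figure D3:**
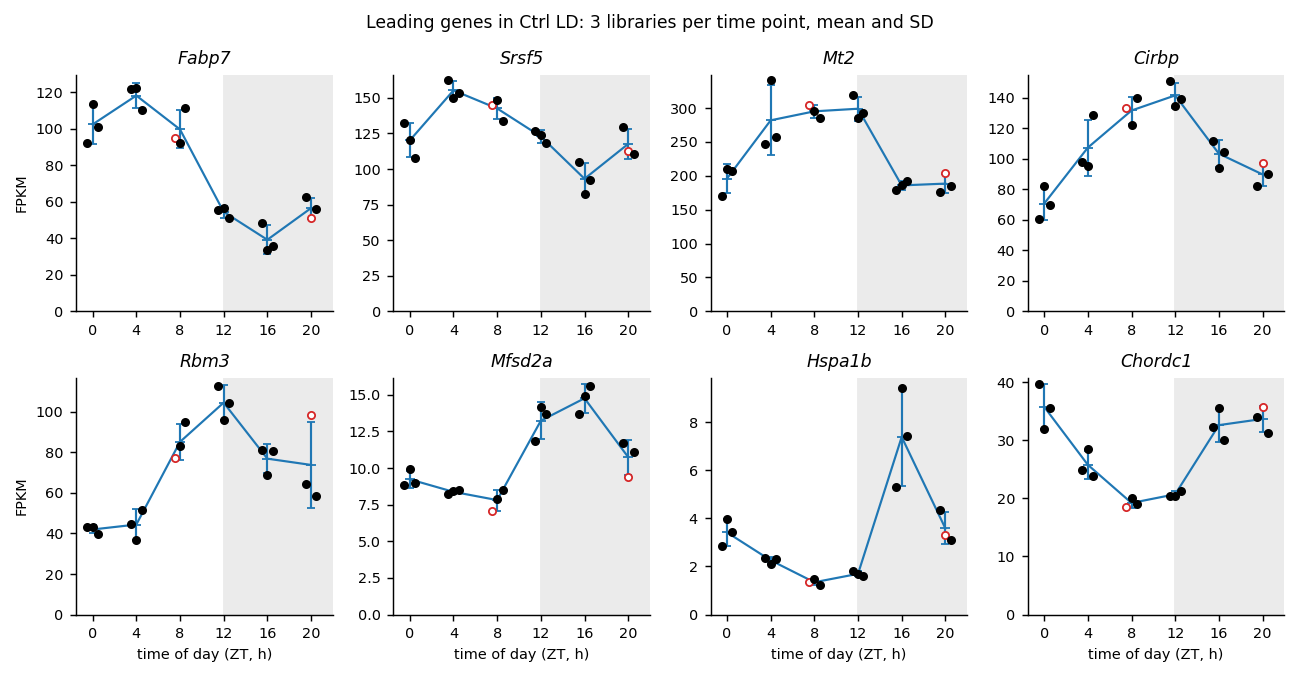
FPKM (y axis) by time of day (x axis, ZT in hours) for 8 genes outside the core clock, with the same points, means, SD bars and shading as in the plot of clock genes. Their peaks follow each other through the day, with Fabp7 and Srsf5 high at ZT4, Mt2 and Cirbp at ZT8 and ZT12, Rbm3 at ZT12, Mfsd2a at ZT16, Hspa1b at ZT16 and Chordc1 at ZT0 and ZT16 to ZT20.

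Most heat shock proteins and cochaperones had fitted peaks in the dark phase, and those called by limma rose there together. These chaperones refold proteins and are induced through heat shock factor. Of 20 genes, 19 had a fitted peak after ZT12, whereas 47.7% of all genes tested peaked before it. Limma called 4 and JTK_CYCLE 11 (55%), against 0.655% and 10.9% of all genes, and the median amplitude was 0.16. The 11 JTK_CYCLE calls peaked between 18.3 and 22.2 h. The mean of the list was highest at ZT16, 0.23 above its daily mean on the log2 scale, and lowest at ZT8, at -0.23. Without replicate 2 of ZT20, limma called 10 and JTK_CYCLE 16, where they called 4.51% and 17.4% of all genes.

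Hspa1b (chr17:34956436-34959238), an inducible HSP70, was at 2.85, 3.98 and 3.42 FPKM at ZT0, 2.34, 2.12 and 2.30 at ZT4, 1.34, 1.46 and 1.23 at ZT8, 1.79, 1.70 and 1.58 at ZT12, 5.30, 9.40 and 7.44 at ZT16 and 4.34, 3.31 and 3.09 at ZT20. Its ZT16 libraries were the highest and its ZT8 libraries the lowest of the 18, with no overlap. The amplitude was 0.78 ± 0.14 with a peak at 19.1 ± 0.662 h, a 2.97-fold change (limma, adjusted p = 0.0200). Hspa1a, its neighbour and near-identical copy (chr17:34969190-34972156), had the same course at 7.16 to 10.5 FPKM at ZT16 and 2.59 to 3.10 at ZT8 (amplitude 0.51 ± 0.10, peak 19.1 ± 0.739 h, limma, adjusted p = 0.0431), and reads of the 2 genes may have been divided between them, so each value is uncertain. The call of Hspa1a held in 6 and that of Hspa1b in 16 of the 18 fits that left out 1 library. Their RefSeq promoters, shown because the pair moved together, differ at 1 of the 150 bases before the start, and capitals mark the core of a heat shock element.
Hspa1a, chr17:34972157-34972306, minus strand: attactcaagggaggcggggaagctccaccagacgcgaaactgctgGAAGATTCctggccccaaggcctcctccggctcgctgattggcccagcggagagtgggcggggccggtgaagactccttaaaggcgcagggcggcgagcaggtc
Hspa1b, chr17:34959239-34959388, minus strand: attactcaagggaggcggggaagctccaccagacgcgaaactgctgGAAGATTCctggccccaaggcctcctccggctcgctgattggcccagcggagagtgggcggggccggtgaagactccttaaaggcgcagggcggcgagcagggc
The letters searched were GAANNTTC on either strand, an element added to the search after the values of these genes were seen, and the match begins at -104 in both. It was present in 7.86% of all 32851 promoters, in 6.84% of those of tested genes and in 9 of the 16 heat shock genes with a promoter.

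Chordc1, a cochaperone of HSP90 (chr9:18292125-18317442), was at 39.7, 31.97 and 35.6 FPKM at ZT0, 24.9, 28.5 and 23.9 at ZT4, 18.5, 20.1 and 19.05 at ZT8, 20.5, 20.3 and 21.3 at ZT12, 32.2, 35.6 and 29.99 at ZT16 and 33.96, 35.8 and 31.3 at ZT20. The 6 libraries of ZT8 and ZT12 were the lowest, ZT4 was intermediate, and the 9 of ZT16 to ZT0 were the highest, with no overlap between these 3 sets. Its amplitude was 0.47 ± 0.05 and its peak 21.03 ± 0.373 h (limma, adjusted p = 0.000104). Hsph1, the HSP110 that recharges HSP70 (chr5:149614287-149636376), was at 126, 127 and 122 FPKM at ZT0, 112, 111 and 106 at ZT4, 88.2, 89.1 and 90.7 at ZT8, 79.2, 84.1 and 84.6 at ZT12, 116, 124 and 133 at ZT16 and 136, 101 and 117 at ZT20. Again the 6 libraries of ZT8 and ZT12 lay below all others (amplitude 0.29 ± 0.04, peak 21.7 ± 0.600 h, limma, adjusted p = 0.00950). Among members called by JTK_CYCLE alone, Cryab, a small heat shock protein of glia, had an amplitude of 0.36 at 19.7 h (limma, adjusted p = 0.0593) and Dnajb1, the HSP40 partner of HSP70, of 0.29 at 18.3 h (limma, adjusted p = 0.136).

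Chaperones of the endoplasmic reticulum kept a similar time with smaller amplitudes. Of 17 genes, 15 had a fitted peak after ZT12, whereas 47.7% of all genes tested peaked before it. Limma called 1 and JTK_CYCLE 6 (35.3%), against 0.655% and 10.9% of all genes, and the median amplitude was 0.15. The gene called was Sdf2l1, a partner of the HSP70 of that compartment (chr16:17130138-17132383), at 13.6, 19.5 and 18.5 FPKM at ZT0, 15.6, 19.6 and 18.6 at ZT4, 12.1, 12.3 and 11.7 at ZT8, 12.99, 11.9 and 12.2 at ZT12, 21.4, 20.6 and 24.5 at ZT16 and 25.2, 25.9 and 19.2 at ZT20. Its 6 libraries of ZT8 and ZT12 were the lowest of the 18 (amplitude 0.43 ± 0.08, peak 20.3 ± 0.675 h, limma, adjusted p = 0.0234). Xbp1, the transcription factor of the unfolded protein response, and Calr, a lectin chaperone, had peaks at 20.2 and 21.7 h and narrowly missed the adjusted threshold (limma, adjusted p = 0.0508 and 0.0537). Without replicate 2 of ZT20, limma called 6 and JTK_CYCLE 12, where they called 4.51% and 17.4% of all genes. Outside this list, Serpinh1, the collagen chaperone of the same compartment (chr7:99345376-99353239), peaked at 20.4 ± 0.572 h with an amplitude of 0.35 ± 0.05 (limma, adjusted p = 0.00671).

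Most genes of neuronal excitability had fitted peaks in the dark phase. Of 27 voltage-gated channel genes 26 had a peak after ZT12, and of 27 tested GABA and glutamate receptor genes 25, whereas 47.7% of all genes tested peaked before it. JTK_CYCLE called 4 channel genes (14.8%) and 3 receptor genes (11.1%), against 10.9% of all genes, and limma 1 and none, against 0.655%. The median amplitudes were 0.11 and 0.10, against 0.08 of all genes. Cacna1i, a T-type calcium channel subunit (chr15:80287238-80398279), was the one called, at 5.21 to 5.64 FPKM at ZT8 and 6.90 to 9.01 at ZT20 (amplitude 0.22 ± 0.04, peak 19.6 ± 0.685 h, limma, adjusted p = 0.0255). Gabra2 had an amplitude of 0.27 ± 0.06 at 21.04 ± 0.795 h (limma, adjusted p = 0.0598). Members of such lists are not independent. Of the 8 neuron markers 6 also had a fitted peak from ZT12 on, and the mean of that list was highest at ZT12. The part of these markers in the channel and receptor values was not tested. None of 20 synaptic vesicle genes was called by either rule, and 17 of them also had a fitted peak from ZT12 on. Of 14 genes of NAD metabolism JTK_CYCLE called Nadk and Nmrk1 and limma none. In the same window, Zfp207 peaked at 18.5 ± 0.568 h and Tubd1, the delta tubulin of centrioles, at 21.7 ± 0.549 h, with amplitudes of 0.24 ± 0.04 and 0.23 ± 0.03.

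**Figure D4:**
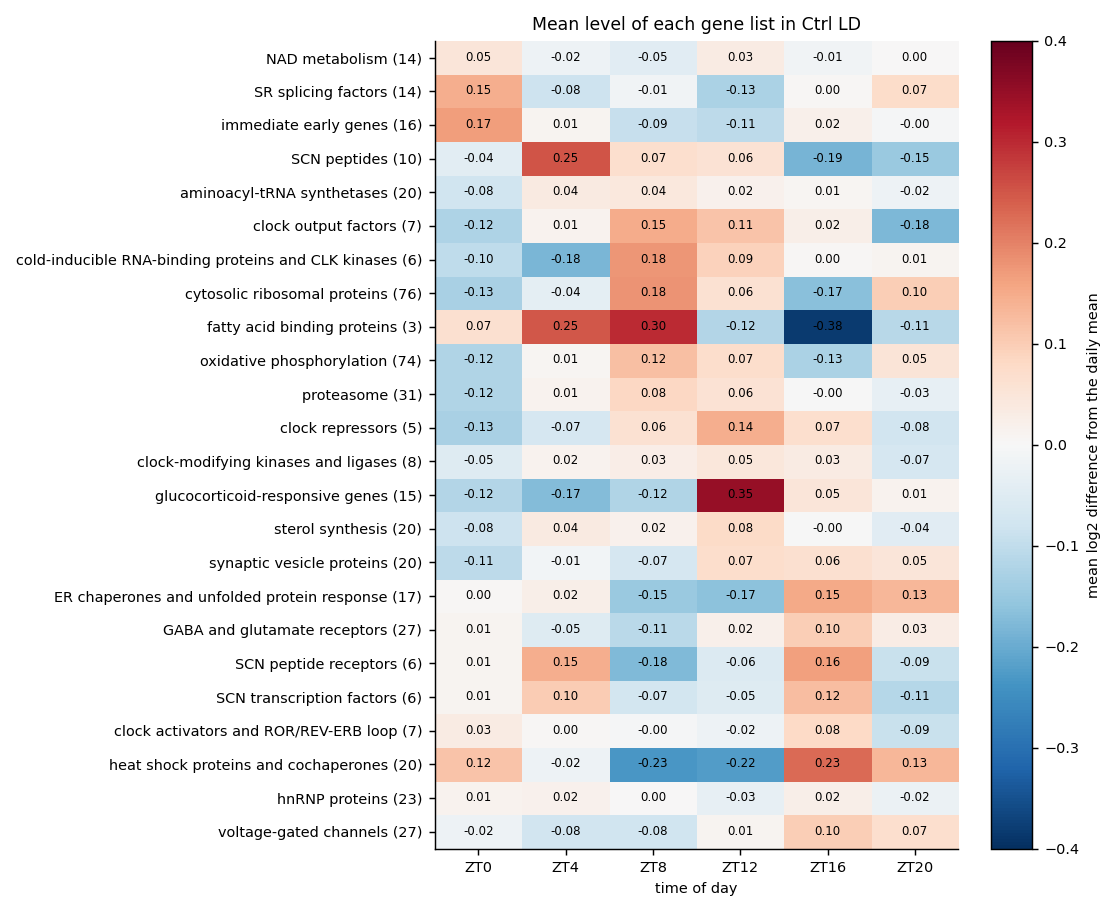
Mean log2 difference from the daily mean (colour and number) of each gene list (y axis, number of tested genes in brackets) at each time point (x axis) in Ctrl LD, 3 libraries per time point. Heat shock and endoplasmic reticulum chaperones are lowest at ZT8 and ZT12 and highest at ZT16, the glucocorticoid-responsive list is highest at ZT12, and ribosomal and oxidative phosphorylation genes are highest at ZT8.

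The rhythm of the 93 genes was set beside that in the group without dietary tryptophan under the same light, -Trp LD, whose 18 libraries were placed by continuing the shift of the columns. Of the 93 genes 63 were called there on their own (67.7% of them and 16.6% of the 380 genes called there, which are 2.68% of 14174), and 74 (79.6%) peaked within 2 h of their Ctrl LD time, against 34.7% of all genes. Their median amplitude there was 0.29, with 40 of the 93 lower than in Ctrl LD, and the median shift was -0.99 h, that is, earlier without tryptophan. A test of the difference in rhythm between the diets called none of 14202 genes (0%) in limma, and 452 (3.18%) had an unadjusted p under 0.05, among them 16 of the 93. Rbm3 peaked at 13.01 ± 0.548 h in Ctrl LD and 10.7 ± 0.322 h in -Trp LD (unadjusted limma p of the difference 0.00563, adjusted p = 0.9997). Mt2 had an amplitude of 0.41 ± 0.05 in Ctrl LD and 0.17 ± 0.07 in -Trp LD (unadjusted limma p of the difference 0.00118, adjusted p = 0.9997). The 3 smallest p-values of this test were those of Fkbp5 (2.63e-05), Mcam (0.000413) and Atp6v0e (0.000559), none of them among the 93. Fkbp5, of the glucocorticoid-responsive list, had an amplitude of 0.13 ± 0.05 in Ctrl LD and 0.59 ± 0.07 in -Trp LD, with fitted peaks at 14.2 ± 1.56 h and 14.8 ± 0.425 h (adjusted limma p of the difference 0.373). Plin4 had amplitudes of 0.71 ± 0.11 and 1.23 ± 0.13 (unadjusted limma p of the difference 0.00917, adjusted p = 0.9997).

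In constant darkness on the same diet (Ctrl DD), none of the 93 was called on its own, where limma called 0 of 14496 genes (0%) and 1184 (8.17%) had an unadjusted p under 0.05, among them 9 of the 93. The median amplitude of the 93 was 0.09 in Ctrl DD, 91 of them lower than in Ctrl LD, while over all genes it was 0.07 in Ctrl DD and 0.08 in Ctrl LD. Within 2 h of their Ctrl LD time lay the peaks of 25 of the 93 (26.9%), against 12.1% of all genes. The 93 were chosen by their Ctrl LD values, so a lower value elsewhere is in part fixed by that choice. A test of the difference in rhythm called 6 of 14426 genes in limma (0.0416%), with 2135 (14.8%) at an unadjusted p under 0.05, among which were 69 of the 93. Light condition goes with the sum of FPKM, at 403066 to 483096 in Ctrl LD and at most 352980 in Ctrl DD, so light and whatever set those sums cannot be told apart. Free-running mice in darkness also drift from the clock hour, and how far was not tested.

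Among the clock genes, Dbp had an amplitude of 0.65 ± 0.05 in Ctrl LD, 0.52 ± 0.10 without tryptophan and 0.07 ± 0.14 in constant darkness, and Ciart of 0.38 ± 0.04, 0.35 ± 0.05 and 0.07 ± 0.08 in the same order. The difference between light and darkness had unadjusted limma p-values of 0.00260 for Dbp and 0.00164 for Ciart (adjusted p = 0.173 and 0.155). Nr1d1 was at 0.26 ± 0.04, 0.25 ± 0.04 and 0.09 ± 0.07, with an adjusted p of 0.426 for light against darkness. Fabp7 had amplitudes of 0.82 ± 0.05, 0.92 ± 0.07 and 0.31 ± 0.17 and Chordc1 of 0.47 ± 0.05, 0.53 ± 0.06 and 0.16 ± 0.08 (adjusted limma p of light against darkness 0.245 and 0.183). None of these 5 differences passed the adjusted test.

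**Figure D5:**
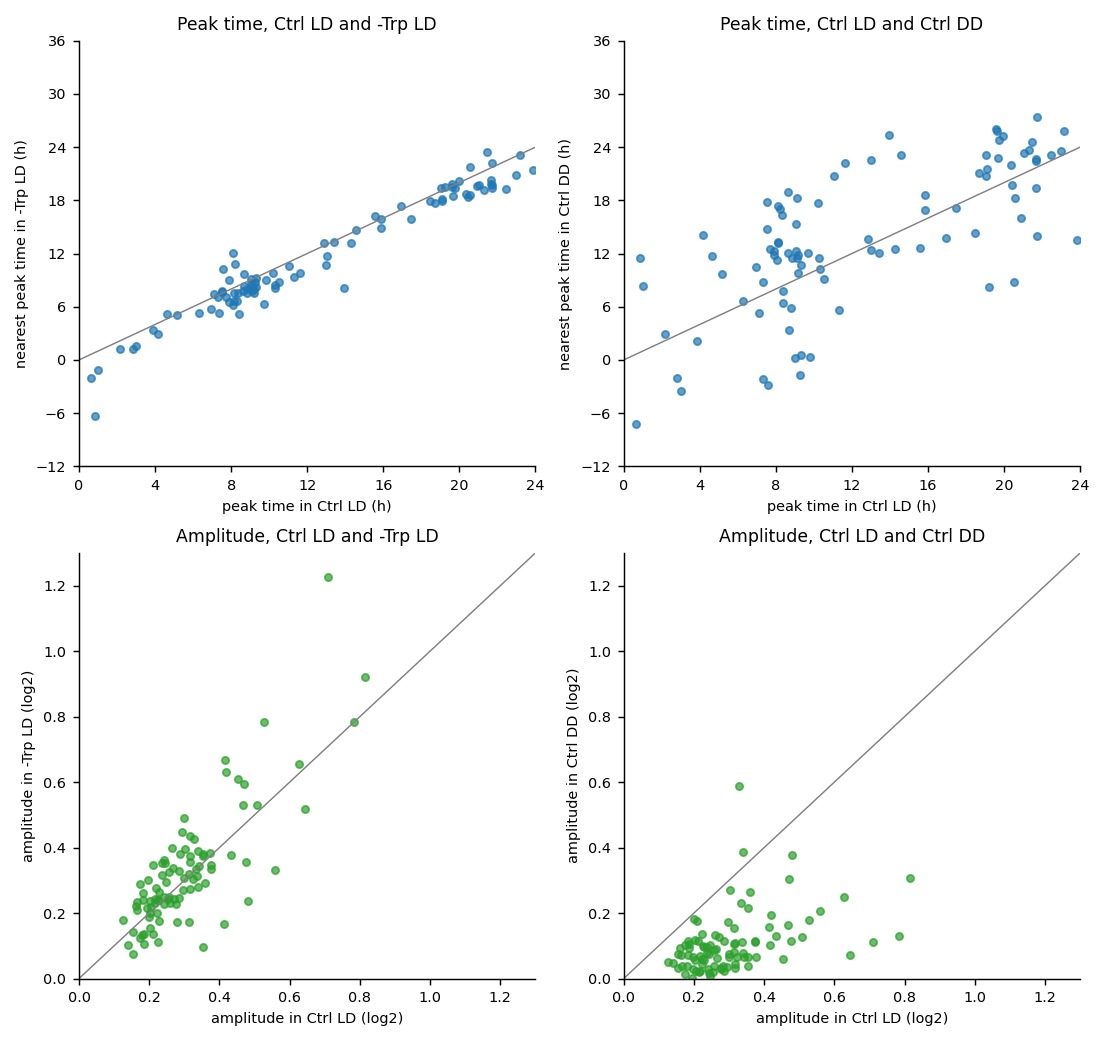
Peak time in hours (upper panels) and log2 amplitude (lower panels) of the 93 genes called in Ctrl LD (x axes) against -Trp LD (left) and Ctrl DD (right), 1 point per gene, with the line of equal values; peak times are drawn at the nearest cycle. Peaks in -Trp LD lie along the line with a median shift of -0.99 h, and in Ctrl DD 91 of the 93 amplitudes lie below it.

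The 1 gene of the 93 whose rhythm differed from Ctrl DD by the adjusted test was Xpa, which recognises damaged DNA in nucleotide excision repair (chr4:46155347-46196311). It was at 9.23, 9.21 and 7.05 FPKM at ZT0, 8.74, 11.002 and 10.9 at ZT4, 12.6, 12.4 and 11.4 at ZT8, 9.84, 10.7 and 9.67 at ZT12, 8.45, 6.70 and 8.17 at ZT16 and 9.54, 7.67 and 6.76 at ZT20. Its 3 ZT8 libraries were higher than all the other 15. In Ctrl LD it peaked at 7.52 ± 0.741 h with an amplitude of 0.30 ± 0.06 (limma, adjusted p = 0.0431) and in Ctrl DD the fit gave a peak at 17.9 ± 0.968 h with 0.17 ± 0.04, and the difference had an adjusted limma p of 0.0380. The call of Xpa in Ctrl LD held in 4 of the 18 fits that each left out 1 library, and the count of 6 differences from Ctrl DD was 0 without the filter on low values and 0 to 93 on leaving out 1 library.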

How the data were processed

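The authors prepared stranded, poly(A)-selected libraries (TruSeq) from 200 ng of SCN RNA and sequenced read pairs of 100 bases. Per the submitters' processing notes and the methods, reads were trimmed with Trimmomatic, aligned to mm10 with TopHat and quantified with Cufflinks; tool versions are not given in the sources used here. The deposited tables hold the authors' FPKM values for 24883 entries (24346 symbols) and no read counts, so depth is unknown, no counting interval can be given, and no count model was run. Columns were matched to the labels by name, except that the third replicate column of 1 time point has no title of that number and was matched to its group alone. Placement by the study's gene listing then replaced the column names.

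From these values, JTK_CYCLE (period 24 h, 6 lags, Bonferroni over lags, exact null, p under 0.05) was run on FPKM as deposited, after the study's methods. limma 3.58.1 in R 4.3.3 fitted cosine and sine terms to log2(FPKM + 0.5), where the FPKM of all 72 libraries had been scaled by the median of ratios and genes averaging under 0.5 FPKM were left out, with a moderated F-test and Benjamini-Hochberg adjustment (0.05). Differences in rhythm between groups were tested in limma with interaction terms. Both procedures were tested on simulated data. Python 3.11.15 was used for JTK_CYCLE. Positions are from GENCODE M21 (23310 of 24346 symbols matched), promoters from RefSeq on GRCm38.p6.

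Named are the clock lists, the 4 genes with the smallest p in each peak window among JTK_CYCLE calls averaging 1 FPKM or more, the 10 largest amplitudes among genes called, up to 4 called members of each list (or the member with the smallest p), and the 6 and 3 genes with the smallest p against Ctrl DD and -Trp LD; members of lists named beyond these were chosen after their values were seen. A gene that the rule names is not reported here. The group, the lists and the tests were chosen with earlier results of these data known. Same-numbered replicates did not deviate together (median correlation 0.0191, with 9 of 45 pairs over 0.1), so numbers were not taken as pairs. No 2 libraries were counted as 1. Alternatives were other pseudocounts, filters, scaling, a replicate block, time as a factor, columns as named and leaving out libraries.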

Additional observations from a re-analysis of the deposited data

Results flagged for a closer look

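For 6 genes the daily rhythm differed between Ctrl LD and Ctrl DD by the limma test of the difference itself, over 14426 genes. Xpa had an amplitude of 0.30 ± 0.06 with a peak at 7.52 ± 0.741 h in Ctrl LD and of 0.17 ± 0.04 at 17.9 ± 0.968 h in Ctrl DD (adjusted p of the difference 0.0380). B230216N24Rik had an amplitude of 0.28 ± 0.07 with a peak at 3.88 ± 1.003 h in Ctrl LD and of 0.34 ± 0.07 at 13.1 ± 0.736 h in Ctrl DD (adjusted p of the difference 0.0443). Timeless had an amplitude of 0.10 ± 0.05 with a peak at 3.75 ± 1.75 h in Ctrl LD and of 0.44 ± 0.08 at 14.3 ± 0.731 h in Ctrl DD (adjusted p of the difference 0.0443), and encodes a partner of the replication fork and of the clock. Its mean was 0.632 FPKM in Ctrl LD and 0.986 in Ctrl DD, close to the level filter of 0.5 FPKM. Rnaset2a had an amplitude of 0.21 ± 0.05 with a peak at 5.87 ± 0.956 h in Ctrl LD and of 0.15 ± 0.03 at 18.3 ± 0.913 h in Ctrl DD (adjusted p of the difference 0.0464). Dcn had an amplitude of 0.33 ± 0.09 with a peak at 1.39 ± 1.10 h in Ctrl LD and of 1.23 ± 0.25 at 13.3 ± 0.776 h in Ctrl DD (adjusted p of the difference 0.0443). Dcn encodes a proteoglycan of fibroblasts and had a mean of 4.65 FPKM in Ctrl LD and 16.01 in Ctrl DD. Mfap4, an extracellular matrix gene, was below the level filter in Ctrl LD alone (mean 0.324 FPKM) and had an amplitude of 0.99 ± 0.19 at 13.4 ± 0.721 h in Ctrl DD (adjusted p of the difference 0.0443). Of these 6 genes Xpa alone was called by limma in Ctrl LD on its own. JTK_CYCLE also called B230216N24Rik and Rnaset2a there (exact p = 0.00291 and 0.0259). Limma called none of the 6 in Ctrl DD on its own, where it called 0 of 14496 genes, and JTK_CYCLE was not run there. The study, by JTK_CYCLE at p under 0.05, reports Timeless as oscillating in Ctrl DD and in none of its other groups. Dcn and Mfap4 mark meningeal and fibroblast tissue, whose markers differed between Ctrl LD libraries, and their part was not tested.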

How the results depend on the processing

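The JTK_CYCLE count of 1769 stayed within 1.5 times under a filter, scaling and another handling of ties, and was 21 of 24883 entries after Benjamini-Hochberg adjustment, 2706 without both libraries that stood apart (chosen after seeing the data) and 1314 to 2722 on leaving out 1 library, with 2722 without replicate 2 of ZT20. The limma count of 93 was 63 with a replicate block and 80 to 108 under other pseudocounts, scaling and filters, 76 with time as a factor, 599 without both libraries and 49 to 641 on leaving out 1 (ZT8 replicate 2 49, ZT8 replicate 3 54, ZT12 replicate 2 49, ZT12 replicate 3 52, ZT20 replicate 2 641). With the columns as named, JTK_CYCLE called 9416 genes and limma 9183, the differences called were 10442 against Ctrl DD and 7514 against -Trp LD, and Dbp peaked at 2.09 h, Ciart at 0.544 h and Nr1d1 at 0.434 h; the cause was not tested. The 6 differences from Ctrl DD were 1 with a pseudocount of 1, 23 with FPKM as deposited, 0 without a filter, 1 with a mean of at least 1 FPKM, 2 with a replicate block and 0 to 93 on leaving out 1 library (93 without Ctrl LD ZT20 replicate 2, 40 without Ctrl DD 12 h replicate 1, 33 without 16 h replicate 1), moving by over 1.5 times in 26 of 36 such fits. Differences from -Trp LD were 0 under every other setting but 1 without -Trp LD ZT20 replicate 3. Of 39 named genes called, FPKM as deposited lost 2, the replicate block 6 and other pseudocounts 0, 29 passed on leaving out any 1 library, and peaks moved by at most 0.593 h.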
